A study of Mus musculus with 10 samples.

Results

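Transcripts of 10 genes that are widely used as markers of tissue macrophages were followed across 10 RNA libraries of innate lymphoid cells (ILCs) from mouse skin. The 10 genes are Lyz2, C1qa, C1qb, C1qc, Csf1r, Adgre1, Cd68, Retnla, F13a1 and Fcna, and they were picked by symbol out of the 47643 gene identifiers in each deposited table. ILCs are tissue lymphocytes without rearranged antigen receptors, and none of the 10 genes is a defining gene of that lineage. The donors were adult B6 mice, and the labels give no treatment, sex or genetic change for any library. The 4 groups were epidermal ILCs (3 libraries), dermal ILCs sorted as CCR6+ (2), dermal ILCs sorted as Sca1+ (2) and subcutaneous ILCs (3). The cell type label of the second library of either dermal sort names no marker, so its group was taken from the title. The labels give neither the gates of the sorts nor whether libraries of a group came from separate animals, so p-values cover only the spread among these libraries, and that spread may be technical.

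Tissue macrophages are phagocytes that depend on signalling through the CSF1 receptor, the product of Csf1r, whose ligands are CSF1 and IL-34. They carry the adhesion receptor F4/80 (Adgre1) and the endosomal glycoprotein CD68, secrete lysozyme (Lyz2) and are a main source of the complement starter C1q, which is assembled from the chains encoded by C1qa, C1qb and C1qc. Retnla encodes RELMα, a secreted protein that macrophages make in response to IL-4 and IL-13. F13a1 encodes the A subunit of the clot-stabilizing factor XIII, and Fcna encodes ficolin A, a lectin that starts complement on microbial sugars.

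The C1q genes lie side by side on the minus strand of chromosome 4 (136880129 to 136898803, mm10), in a stretch of 18675 bp with gaps of 3616 bp between C1qb and C1qc and 2851 bp between C1qc and C1qa. The other genes are scattered. Lyz2 lies on chromosome 10 (117277331 to 117282321), Adgre1 on chromosome 17 (57358691 to 57483527) and Cd68 on chromosome 11 (69664213 to 69666153). Retnla lies on chromosome 16 (48842551 to 48844461), F13a1 on chromosome 13 (36867178 to 37050244) and Fcna on chromosome 2 (25624666 to 25628030). Positions are from GENCODE M21, in which all are protein-coding. Antisense genes overlap F13a1 (Gm49144 and Gm30489) and Fcna (Fcnaos). The library kit does not mark strand, so reads from stretches that such genes share cannot be told apart by strand.

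Promoters of the members are shown beside the values as a description. RefSeq promoter windows of 300 bases (250 before and 50 after the start, build GRCm38.p6) were matched for 7 of the 10 genes, with 2 windows for F13a1. Shares of all promoters are per window. AGGAAGT, the core bound by ETS factors such as the macrophage regulator PU.1, was searched on both strands and was present in 6 of the 8 windows, 1 each of Lyz2, C1qb, C1qc, Retnla, F13a1 and Fcna, against 9.35% of 32851 promoter windows. This motif was chosen after the sequences had been seen. The longer form GAGGAAGT, which contains AGGAAGT, was in 3 of the 8 windows (C1qc, Retnla and 1 of F13a1) and in 3.2% of all windows. The following 90-base stretches, each 5′ to 3′ on the strand of its gene, hold the motif in capitals as ACTTCCT, its reverse complement. They are shown for the genes in which the motif lies before both the RefSeq start and the gene start in GENCODE M21. In Fcna and F13a1 the motif lies inside the gene as placed by GENCODE M21. The stretches are at chr10:117282325-117282414 (minus strand) for Lyz2, chr4:136886206-136886295 (minus) for C1qb, chr4:136893066-136893155 (minus) for C1qc and chr16:48842369-48842458 (plus) for Retnla.
Lyz2: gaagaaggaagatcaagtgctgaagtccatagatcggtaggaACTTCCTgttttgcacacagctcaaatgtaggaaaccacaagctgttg
C1qb: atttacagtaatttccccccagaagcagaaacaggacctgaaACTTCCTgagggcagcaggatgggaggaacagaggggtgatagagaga
C1qc: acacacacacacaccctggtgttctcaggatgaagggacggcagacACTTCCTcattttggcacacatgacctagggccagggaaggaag
Retnla: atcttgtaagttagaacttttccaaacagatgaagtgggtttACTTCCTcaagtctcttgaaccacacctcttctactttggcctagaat
The first base of the motif lies 100 bases before the RefSeq start in Lyz2 and 53 in C1qb, and 195 and 198 bases before it in C1qc and Retnla. TTNNGNAA, a form bound by C/EBP factors, was in 7 of the 8 windows (all but that of C1qb) and in 40.7% of all windows. TGANTCA, a form bound by AP-1, was in the window of Cd68 alone (7.81% of all windows), and TATAAA in that of Retnla alone (13.6%). A match is a stretch of letters and was not tested for binding.

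The libraries held between 11627222 and 18118544 expected counts, and 3 counts corresponded to 0.149 to 0.258 CPM, the count scaled to a common library size after TMM normalization. Replicates of every group differed by more than sampling noise (chi-square per degree of freedom 40.9 to 133), so each library was counted once. Transcripts of the general leukocyte gene Ptprc (641 to 1327 CPM), of the IL-7 receptor gene Il7r (479 to 602 CPM) and of Id2, a regulator of ILC development (1392 to 2255 CPM), were present in every library. The T cell receptor complex gene Cd3g was at 92.6 to 448 CPM, although ILCs are defined by the absence of a T cell receptor. Other genes of that complex had lower means than Cd3g over the 10 libraries (245 CPM). These were Trbc1 at 152, Trac at 25.9, Cd3e at 23.6 and Cd3d at 10.2 CPM. Whether T cells were present was not tested. All 10 macrophage genes passed the low-count filter that left 16208 genes to test.

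Macrophage transcripts were lowest in epidermal ILCs and highest in subcutaneous ILCs. The summed level of the 10 genes was 3.20, 1.60 and 4.61 CPM in the epidermal libraries, 302 and 185 CPM in the dermal CCR6+ libraries, 392 and 719 CPM in the dermal Sca1+ libraries, and 6055, 11473 and 6683 CPM in the subcutaneous libraries. In counts, this was 59, 23 and 93 reads in the epidermal libraries and between 84284 and 164958 in the subcutaneous libraries, where the 10 genes took 0.563%, 1.04% and 0.613% of all counts. The ranges of the 4 groups did not overlap. In these bulk libraries, fewer macrophages and less RNA per macrophage cannot be told apart, nor can macrophages from ILCs as the source of a transcript.

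**Figure D1:**
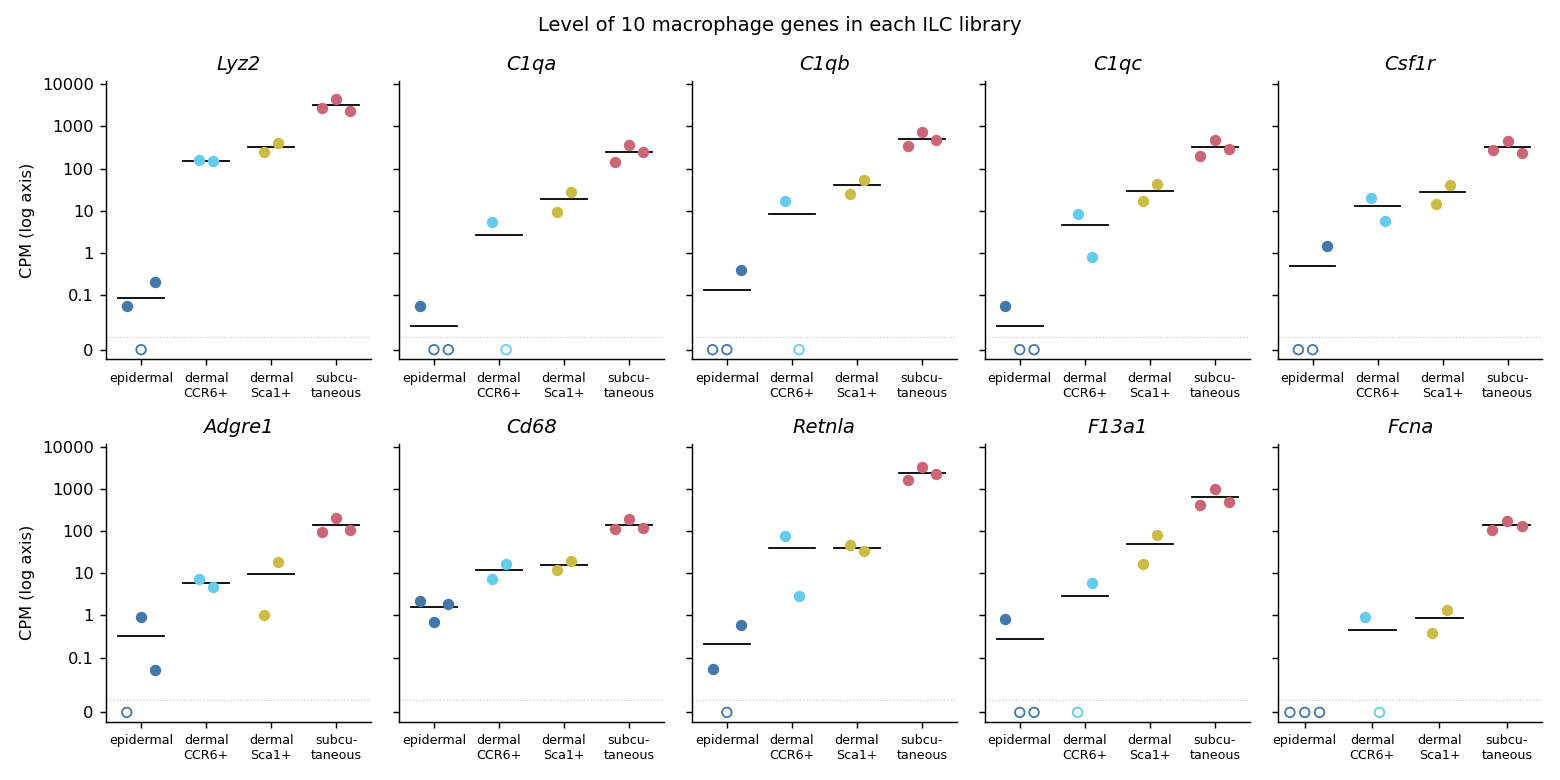
Level of each of the 10 macrophage genes (y axis, CPM, log axis) in each library (points) of the 4 groups (x axis). Open points on the lowest line are libraries with 0 counts, and black lines are group means. Every subcutaneous point lies above every epidermal and dermal point in all 10 panels.

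Compared between genes on the length-corrected TPM scale, Retnla was the most abundant of the 10 in subcutaneous ILCs at 8696 ± 2691 TPM (SD, n = 3), followed by Lyz2 at 3660 ± 1245 TPM, and Retnla exceeded Lyz2 in each of the 3 libraries. C1qb came next at 716 ± 246 TPM. C1qc (390 ± 163 TPM) and C1qa (364 ± 140 TPM) changed order between the libraries, and so did F13a1 (196 ± 91.4 TPM) and Cd68 (179 ± 59.2 TPM). Fcna (143 ± 30.4 TPM) was below both F13a1 and Cd68 in each of the 3 libraries, by less than the spread between libraries. The receptors had the lowest levels, Csf1r at 91.3 ± 31.9 TPM and Adgre1 at 51.6 ± 20.1 TPM. In dermal Sca1+ ILCs Lyz2 led instead, at 388 ± 144 TPM against 155 ± 25.0 TPM for Retnla (n = 2). The dermal CCR6+ libraries were split, with Retnla at 275 and Lyz2 at 187 TPM in replicate 1 and Retnla at 10.9 and Lyz2 at 178 TPM in replicate 2.

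Lyz2, the lysozyme gene, had 0.0542, 0 and 0.198 CPM in the epidermal libraries, 161 and 149 CPM in the dermal CCR6+ libraries, 248 and 396 CPM in the dermal Sca1+ libraries, and 2750, 4509 and 2320 CPM in the subcutaneous libraries. The groups followed each other without overlap. The log2 fold change of epidermal over subcutaneous ILCs was -14.94 ± 0.604 (SE), at an adjusted p of 5.2e-07. This and every other adjusted p, unless another tool is named, comes from the quasi-likelihood test of edgeR, adjusted by Benjamini-Hochberg over all genes tested. The paralog Lyz1, a near-identical copy whose reads may be split with Lyz2 in error, had 0 counts in the epidermal libraries, 14.5 to 34.4 CPM in the dermal libraries and 349 to 554 CPM in the subcutaneous libraries. Lyz1 was thus at least 7632-fold higher in subcutaneous than in epidermal ILCs, against a floor of 3 counts over the epidermal group. Lyz2 and Lyz1 had the same order of groups.

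C1qa had a total of 1 count in the epidermal libraries, which was in replicate 1, 5.33 and 0 CPM in dermal CCR6+ replicates 1 and 2, 9.47 and 28.5 CPM in the dermal Sca1+ libraries, and 143, 358 and 243 CPM in the subcutaneous libraries. C1qb had 0, 0 and 0.396 CPM in the epidermal libraries, 16.9 and 0 CPM in the dermal CCR6+ libraries, 25.6 and 54.0 CPM in the dermal Sca1+ libraries, and 335, 736 and 478 CPM in the subcutaneous libraries. C1qc had 1 count over the epidermal group, 8.34 and 0.792 CPM in the dermal CCR6+ libraries, 17.1 and 42.1 CPM in the dermal Sca1+ libraries, and 195, 487 and 287 CPM in the subcutaneous libraries. The 3 chains were thus high in the same libraries, with subcutaneous replicate 2 highest and dermal CCR6+ replicate 2 at or near 0 for all of them. Pooled over each group, the ratio of subcutaneous to epidermal ILCs was 13070 for C1qa (95% exact Poisson interval 2345 to 516299) and 17107 for C1qc (3070 to 675737), and these intervals cover counting error only. The log2 fold change of C1qb was -11.69 ± 1.62 (adjusted p = 0.00062), and C1qa and C1qc had adjusted p-values of 0.000212 and 4.58e-05.

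Fcna, the ficolin A gene, was detected in 6 of the 10 libraries, the fewest of any member. It had 0 counts in all 3 epidermal libraries, 0.899 and 0 CPM in the dermal CCR6+ libraries, 0.381 and 1.38 CPM in the dermal Sca1+ libraries, and 106, 176 and 131 CPM in the subcutaneous libraries. Only the subcutaneous libraries stood clear of the rest, and the dermal groups overlapped each other. Fcna was at least 2427-fold higher in subcutaneous than in epidermal ILCs (floor of 3 counts over the group, adjusted p = 0.000141).

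Csf1r, the receptor gene on chromosome 18 (61100598 to 61132149), overlaps Hmgxb3 on the other strand and Mir6983 on its own strand. Reads from stretches shared with Hmgxb3 could not be assigned by strand. Csf1r was detected in only 1 of the 3 epidermal libraries (0, 0 and 1.49 CPM). It had 19.7 and 5.74 CPM in the dermal CCR6+ libraries, 14.8 and 41.4 CPM in the dermal Sca1+ libraries, and 276, 450 and 240 CPM in the subcutaneous libraries. The dermal groups overlapped, and the subcutaneous group lay above all others, with a log2 fold change of epidermal over subcutaneous ILCs of -9.20 ± 1.12 (adjusted p = 0.000269). Adgre1, the F4/80 gene, had 0, 0.906 and 0.0495 CPM in the epidermal libraries, 7.38 and 4.75 CPM in the dermal CCR6+ libraries, 1.02 and 18.4 CPM in the dermal Sca1+ libraries, and 97.8, 206 and 109 CPM in the subcutaneous libraries. Its dermal Sca1+ replicates differed by a larger ratio, though not by more CPM, than those of any other member in that group. Sca1+ replicate 1 lay below both CCR6+ libraries. For Adgre1 the log2 fold change of epidermal over subcutaneous ILCs was -8.90 ± 1.30 (adjusted p = 0.00087).

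Cd68 was the only member with counts in all 10 libraries. Its level was 2.17, 0.697 and 1.88 CPM in the epidermal libraries, 7.38 and 16.6 CPM in the dermal CCR6+ libraries, 11.8 and 19.3 CPM in the dermal Sca1+ libraries, and 111, 200 and 121 CPM in the subcutaneous libraries. The dermal groups overlapped and lay between the other groups. Its log2 fold change of epidermal over subcutaneous ILCs, -6.48 ± 0.540 (adjusted p = 2.85e-05), was the smallest of the 10 in size.

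Retnla, the RELMα gene, had 0.0542, 0 and 0.595 CPM in the epidermal libraries, 75.4 and 2.90 CPM in the dermal CCR6+ libraries, 46.5 and 34.5 CPM in the dermal Sca1+ libraries, and 1632, 3337 and 2257 CPM in the subcutaneous libraries. The dermal CCR6+ replicates lay on either side of the Sca1+ replicates. The log2 fold change of epidermal over subcutaneous ILCs was -13.25 ± 1.43 (adjusted p = 0.000128). Its paralogs stayed far below it. Retnlg was at 2.74 to 4.87 CPM in the subcutaneous libraries and at 0 in all others, and Retn did not pass 2.64 CPM in any library.

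F13a1, the factor XIII A gene, was detected in 1 epidermal library (0.813, 0 and 0 CPM) and in 1 dermal CCR6+ library (0 and 5.81 CPM). It had 16.7 and 82.8 CPM in the dermal Sca1+ libraries and 410, 1013 and 498 CPM in the subcutaneous libraries. The epidermal and dermal CCR6+ groups overlapped, whereas the other groups were apart from them and from each other. The log2 fold change of epidermal over subcutaneous ILCs was -11.11 ± 1.53 (adjusted p = 0.000606).

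Between epidermal and subcutaneous ILCs, all 10 genes were called (adjusted p under 0.05) and lower in the epidermis, against 13.3% of all genes tested. All 3 epidermal libraries lay below all subcutaneous ones for all 10 genes, against 22.6% of all genes. The median log2 fold change of the 10 was -12.43, or -11.47 with the gene at 0 counts set at its bound, against -0.02 over all genes tested. None of these calls was lost in any of the other settings tried or when any 1 library was left out.

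**Figure D2:**
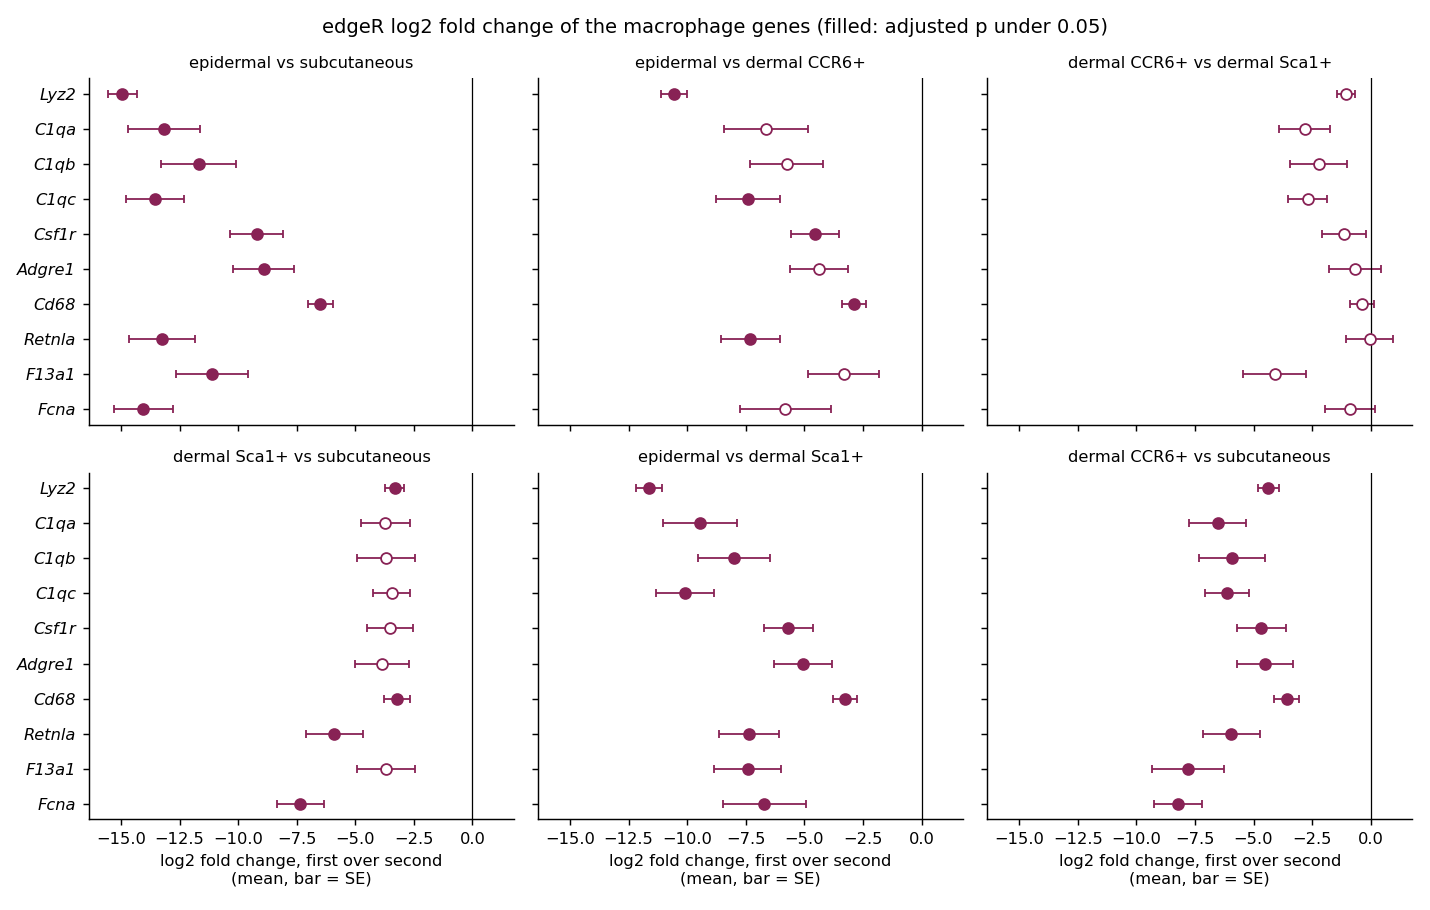
Log2 fold change of the 10 macrophage genes (x axis, first group over second, edgeR) in the 6 comparisons (panels), with bars of 1 SE. Filled points have an adjusted p under 0.05. All 10 points are filled in 3 of the panels, and none is filled between the dermal groups.

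Against the dermal groups the epidermis was also lower. In epidermal against dermal Sca1+ ILCs, all 10 genes were called lower (8.66% of all genes tested) and none overlapped (22% of all genes), with a median log2 fold change of -7.39 (all genes 0). Lyz2 had a log2 fold change of -11.63 ± 0.575 (adjusted p = 5.53e-06) and Cd68 of -3.27 ± 0.506 (adjusted p = 0.00205). Fcna, at 22 counts over the Sca1+ group, was at least 14.2-fold higher there (adjusted p = 0.0462). That call was lost when any 1 of the epidermal, dermal Sca1+ or subcutaneous libraries was left out (adjusted p 0.0508 to 0.193), and that of Adgre1 (adjusted p = 0.025) without epidermal replicate 1 or 3 or Sca1+ replicate 2 (adjusted p 0.0635, 0.0871 and 0.467).

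In epidermal against dermal CCR6+ ILCs, 5 of the 10 genes were called lower, against 5.19% of all genes tested, and 6 did not overlap, against 19% of all genes. The median log2 fold change of the 10 was -5.79 (-5.15 with the gene at 0 counts at its bound, all genes 0). Lyz2 (-10.57 ± 0.565, adjusted p = 1.9e-05), Retnla (-7.31 ± 1.27, adjusted p = 0.00634), Cd68 (-2.89 ± 0.503, adjusted p = 0.00634) and Csf1r (-4.54 ± 1.03, adjusted p = 0.0259) were called. C1qc was called too (adjusted p = 0.00863), with a pooled ratio of 245 (95% exact Poisson interval 43.2 to 9738). C1qa and C1qb each had an adjusted p of 0.0578, Adgre1 of 0.0672, Fcna of 0.136 and F13a1 of 0.252. Dermal CCR6+ replicate 1 carried nearly all the C1q counts of its group, and without it the calls of C1qc and Csf1r were lost (adjusted p = 0.0741 and 0.161) and 3 genes remained called. The call of Cd68 was lost without CCR6+ replicate 2 (adjusted p = 0.0515), and that of Csf1r also without epidermal replicate 2 (adjusted p = 0.0692).

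Between the dermal sorts, 0 of the 10 genes were called by edgeR, against 0.346% of all genes tested that were called lower in CCR6+ ILCs. Neither DESeq2 nor limma on log2(TPM + 1) called any, and 4 of the 10 (Lyz2, C1qa, C1qc and F13a1) had an unadjusted edgeR p under 0.05. The CCR6+ libraries lay below the Sca1+ libraries for 5 genes (Lyz2, the 3 C1q chains and F13a1), against 20.1% of all genes. Log2 fold changes of CCR6+ over Sca1+ ILCs were -1.06 ± 0.394 for Lyz2 (adjusted p = 0.366), -2.82 ± 1.08 for C1qa (0.382), -2.69 ± 0.832 for C1qc (0.264) and -4.10 ± 1.35 for F13a1 (0.305). Retnla was at 39.2 ± 51.3 against 40.5 ± 8.43 CPM (n = 2 each), with a log2 fold change of -0.05 ± 1.01. Without dermal CCR6+ replicate 1 the 3 C1q chains were called lower in the remaining CCR6+ library (adjusted p 0.0228 to 0.0329), where 2 of them had no count.

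From dermal Sca1+ to subcutaneous ILCs all 10 genes were higher in every subcutaneous library than in either Sca1+ library, against 18.4% of all genes with that order. The test called 4 of them lower in Sca1+ ILCs, against 0.993% of all genes tested. These were Lyz2 (log2 fold change -3.31 ± 0.410, adjusted p = 0.00254), Cd68 (-3.21 ± 0.538, adjusted p = 0.0134), Retnla (-5.89 ± 1.21, adjusted p = 0.034) and Fcna (-7.34 ± 0.990, adjusted p = 0.00845). The other 6 had log2 fold changes of -3.84 to -3.45 and adjusted p-values of 0.0589 (C1qc) to 0.179 (C1qb). Limma on log2(TPM + 1) called all 10 and the replicate block by title number 2. Of the 4 calls only that of Lyz2 held without every library in turn: Cd68 was lost without either Sca1+ library (adjusted p = 0.126 and 0.0524), Retnla without either Sca1+ library or any 1 subcutaneous library (adjusted p 0.0656 to 0.203) and Fcna without Sca1+ replicate 1 (adjusted p = 0.0682). Without either CCR6+ library, which the comparison itself does not use but which enters the shared spread, 7 genes were called.

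In dermal CCR6+ against subcutaneous ILCs all 10 genes were called lower (3.71% of all genes tested) and none overlapped (23.5% of all genes). The median log2 fold change was -5.93 (all genes -0.08), from -3.59 ± 0.549 for Cd68 (adjusted p = 0.00357) to -8.22 ± 1.04 for Fcna (adjusted p = 0.00278). Adgre1 had the weakest call (adjusted p = 0.0473) and lost it without either CCR6+ library, any 1 subcutaneous library or epidermal replicate 3 (adjusted p 0.0542 to 0.274). C1qb lost its call without any 1 subcutaneous library (adjusted p 0.0519 to 0.069), and Csf1r without either CCR6+ library or subcutaneous replicate 2 (adjusted p 0.0527 to 0.188).

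The 10 genes did not keep one ratio to each other. Retnla made up 56.8%, 59.6% and 64.0% of their summed TPM in the subcutaneous libraries, 31.1% and 15.5% in the dermal Sca1+ libraries, and 52.7% and 5.06% in the dermal CCR6+ libraries. Lyz2 made up 29.9%, 25.2% and 20.9% in the subcutaneous libraries, 51.6% and 55.4% in the Sca1+ libraries, and 35.8% and 82.3% in the CCR6+ libraries. The TPM ratio of Retnla to Lyz2 was thus 1.90 to 3.07 in the subcutaneous libraries and 0.603 and 0.280 in the Sca1+ libraries, without overlap, and 1.47 and 0.0615 in the CCR6+ libraries. These shares are descriptions and were not tested. In epidermal libraries, with a summed level of 1.30 to 6.95 TPM, shares rest on too few reads to be compared.

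**Figure D3:**
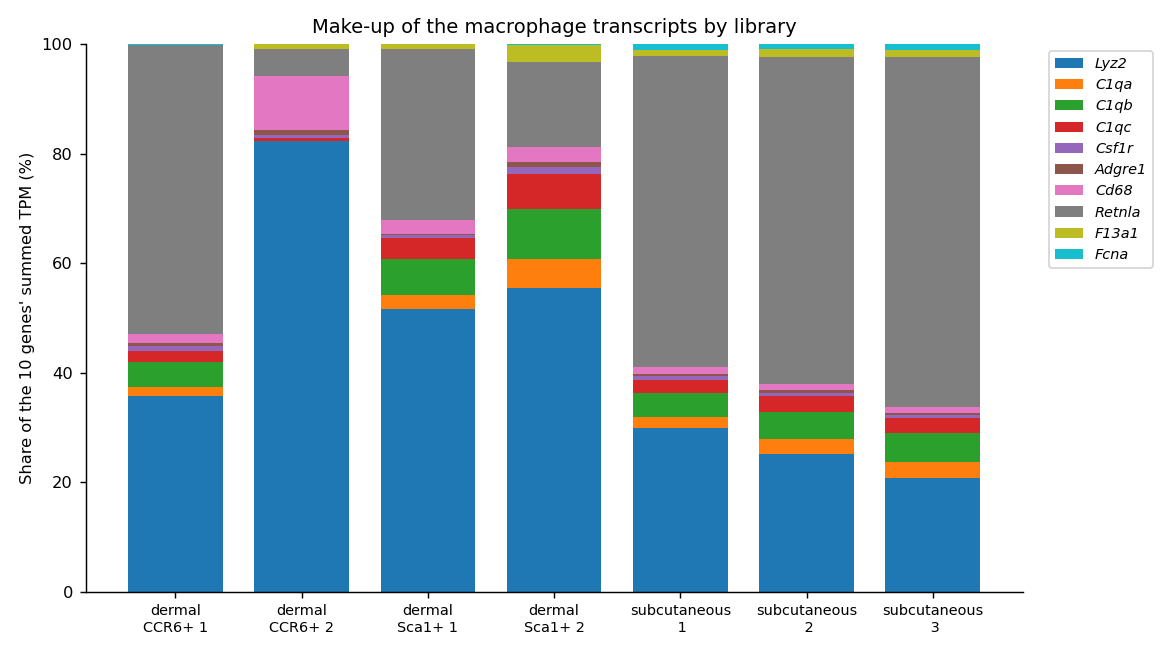
Share of each of the 10 macrophage genes (colours) in their summed TPM (y axis, percent) in the 7 dermal and subcutaneous libraries (x axis). Retnla takes 56.8% to 64.0% in the subcutaneous libraries, and dermal CCR6+ replicate 2 is mostly Lyz2 (82.3%).

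The ratios within the C1q chains and between other members were also set side by side. In the 6 libraries with at least 477 C1q counts, C1qb made up 44.6% to 56.7% of the summed C1q TPM, C1qc 24.4% to 30.3% and C1qa 19.0% to 26.2%. Fcna, the other complement starter among the members, was at 8.52 to 11.9 TPM per 100 TPM of C1q in the subcutaneous libraries and at 0.546 and 0.833 in the Sca1+ libraries. F13a1 showed no such step, with 11.2 to 14.5 per 100 TPM of C1q in the subcutaneous and 7.27 and 15.0 in the Sca1+ libraries. Cd68 was at 4.26 to 5.65 TPM per 100 TPM of Lyz2 in the same 5 libraries. In dermal CCR6+ replicates 1 and 2 it was at 4.76 and 11.8.

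Dermal CCR6+ replicate 2 stood apart from replicate 1 in which macrophage genes it held. It had 2253 Lyz2 counts against 2509 in replicate 1, but 12 against 477 C1q counts and 44 against 1175 Retnla counts. F13a1 went the other way, with 88 counts against 0, and Cd68 with 251 against 115. Its TPM ratio of Lyz2 to C1q was 176, against 4.40 in replicate 1 and 1.92 to 4.01 in the Sca1+ and subcutaneous libraries. This library also had the fewest genes with a count (15013, against 16014 to 19435 in the others) and the lowest mitochondrial share (1.61%), and the part of either in the result was not tested. It is 1 of the 2 libraries whose cell type label names no sort marker.

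A wider list of 32 other macrophage genes, of which 31 were tested, was read beside the members. Between epidermal and subcutaneous ILCs 23 were lower and 2 higher in the epidermis. Over all genes tested, 13.3% were called lower and 6.87% higher. These shares also apply to the list counts of this comparison below. The median log2 fold change of the 31 was -9.45 (-7.32 with genes at 0 counts at their bound). Cd14, the co-receptor for bacterial lipopolysaccharide, was at 0.510 ± 0.609 against 335 ± 127 CPM (n = 3 each, adjusted p = 4.21e-05), and Selenop, a selenium carrier, at 44.3 ± 7.78 against 965 ± 445 CPM (adjusted p = 0.000129). Fcer1g, the signalling chain of Fc receptors, was at 22.4 ± 6.64 against 212 ± 161 CPM (adjusted p = 0.00102), and the Axl and MerTK ligand gene Gas6 at 37.8 ± 10.3 against 159 ± 20.8 CPM (adjusted p = 0.00165). Apoe, a lipid carrier gene abundant in every library (388 to 1206 CPM), was not called (adjusted p = 0.144). The higher genes were the transcription factor gene Maf (179 ± 36.7 against 55.3 ± 17.4 CPM, adjusted p = 0.00125) and the fractalkine receptor gene Cx3cr1 (189 ± 14.7 against 5.38 ± 4.34 CPM, adjusted p = 0.00219), of which Cx3cr1 is named here after its values were seen. Lymphocytes express both, so these genes do not mark macrophages alone.

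**Figure D4:**
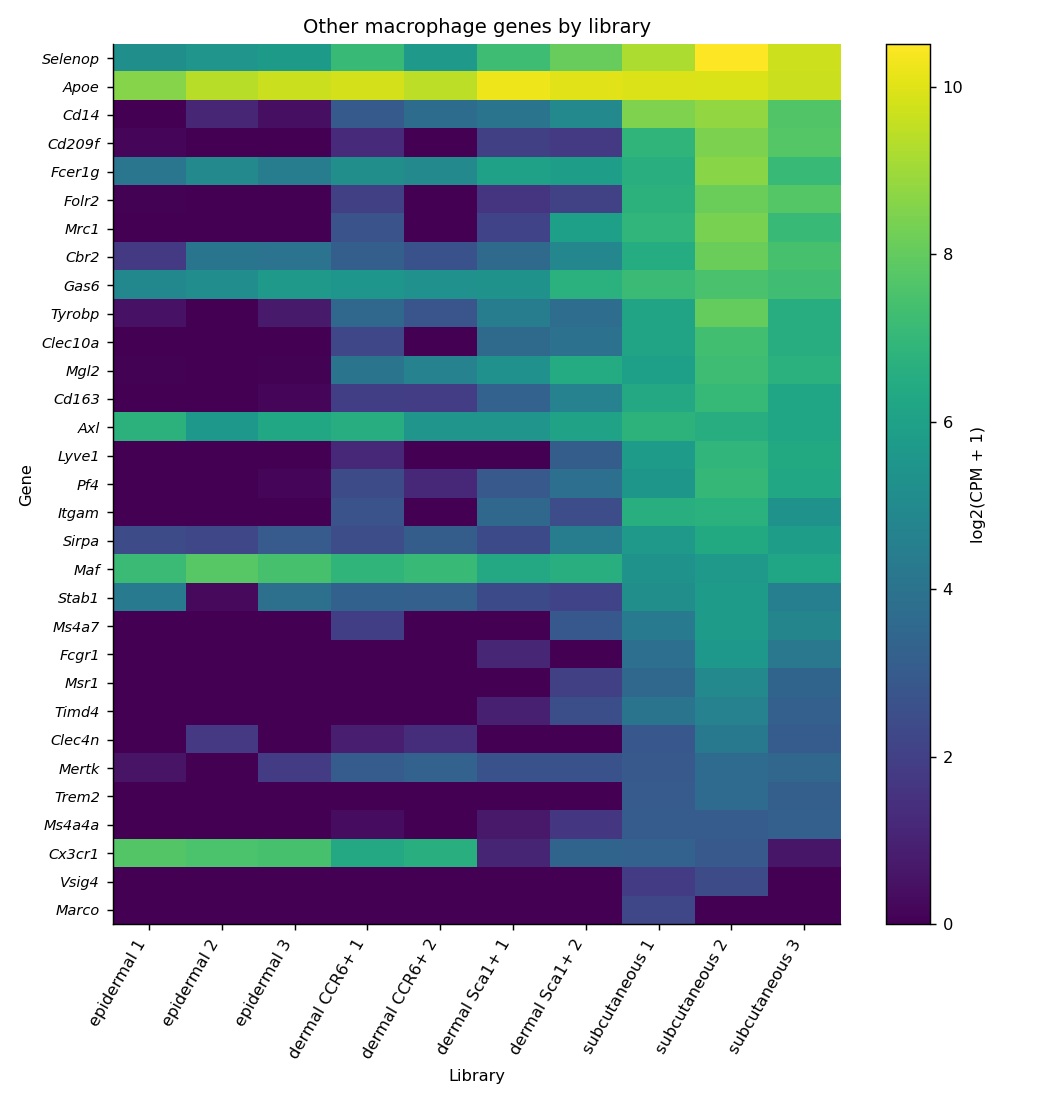
Level of 31 of the other macrophage genes (rows, ordered by mean subcutaneous level) in each of the 10 libraries (columns), as log2(CPM + 1) from 0 (dark) upwards. Most rows are dark in the epidermal columns and bright in the subcutaneous ones, while Maf and Cx3cr1 run the other way and Apoe is bright in all.

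From dermal Sca1+ to subcutaneous ILCs 5 of the 31 genes were called lower in Sca1+ ILCs and 0 higher. Over all genes tested, 0.993% were called lower and 1.21% higher, which also holds for the list counts of this comparison below. Cd14 was among the 5, at a log2 fold change of -3.88 (adjusted p = 0.0251). The median log2 fold change of the 31 was -3.06, close to the -3.69 of the 10 members. Of the 31, 22 had an unadjusted p under 0.05, and DESeq2 called 15. Between the dermal sorts edgeR called 0 of the 31, against 0.346% of all genes tested called lower in CCR6+ ILCs. There 11 had an unadjusted p under 0.05 and DESeq2 called 3.

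Genes of CSF1 receptor signalling and of myeloid transcription factors did not move as one. Of 13 genes, 6 were lower in the epidermis than in subcutaneous ILCs and 0 higher. Csf1, the receptor's ligand, was at 5.56 ± 0.277 CPM in epidermal, 7.13 ± 0.0887 in dermal CCR6+, 53.1 ± 7.61 in dermal Sca1+ and 141 ± 37.1 CPM in subcutaneous ILCs, and no groups overlapped. Csf1 was called between epidermal and subcutaneous (log2 fold change -4.66 ± 0.266, adjusted p = 4.22e-06), between CCR6+ and Sca1+ (-2.89 ± 0.302, adjusted p = 0.00228) and between Sca1+ and subcutaneous ILCs (-1.41 ± 0.266, adjusted p = 0.0239). The transcription factor genes Cebpb and Klf4 were lower in epidermal ILCs, with log2 fold changes of -1.37 and -1.36 (adjusted p = 0.00238 and 0.018), and the adaptor genes Grb2 and Cbl were not called (adjusted p = 0.288 and 0.609). Il34, the second ligand, and Spi1, the PU.1 gene, are named here after their values were seen. Il34 was at 18.4 ± 7.25 against 4.90 ± 3.96 CPM in epidermal and subcutaneous ILCs (adjusted p = 0.0953), and Spi1 at 0, 0 and 1.24 against 22.5, 37.8 and 19.0 CPM (adjusted p = 0.0447).

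Retnla belongs to the macrophage response to IL-4 and IL-13. Of 14 other tested genes of that response, 10 were lower in the epidermis than in subcutaneous ILCs and 0 higher. Arg1, which ILCs also express, was at 21.1 ± 1.81 CPM in epidermal, 9.70 ± 0.176 in dermal CCR6+, 77.6 ± 14.1 in dermal Sca1+ and 757 ± 132 CPM in subcutaneous ILCs. Between the dermal sorts Arg1 was called (adjusted p = 0.0017) where Retnla was not, and the difference between the genes was not tested. Mrc1, the mannose receptor gene, had 0 counts in the epidermis and 120, 341 and 135 CPM in the subcutaneous libraries, at least 3538-fold higher, and Il4ra was at 67.7 ± 29.4 against 727 ± 284 CPM (adjusted p = 0.000102). Of the ligands, Il13 was not called between epidermal and subcutaneous ILCs (42.6 ± 4.63 against 32.4 ± 6.66 CPM, adjusted p = 0.42). Il13 was lower in dermal CCR6+ ILCs (12.3 ± 2.52 CPM) than in epidermal (adjusted p = 0.0151) and subcutaneous ILCs (adjusted p = 0.0417), and Il4 did not pass 9.41 CPM in any library.

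Of 20 tested complement genes beyond C1q, 13 were lower in the epidermis than in subcutaneous ILCs and 0 higher. Itgb2 and Cr1l, with the highest means of the list (420 and 174 CPM over the 10 libraries), were not among the 13. Between the dermal sorts edgeR called 0 of the 20, against 0.346% of all genes tested called lower in CCR6+ ILCs. There 5 had an unadjusted p under 0.05 and DESeq2 called 1. Cfp, the properdin gene, was at 0 counts in the epidermis, at 5.48 to 9.88 CPM in the dermal libraries and at 203, 339 and 237 CPM in the subcutaneous libraries, at least 4592-fold above the epidermis. Cfp was also the 1 gene of the list called between Sca1+ and subcutaneous ILCs (-4.89 ± 0.371, adjusted p = 0.000705). Serping1, the C1 inhibitor gene, differed in pattern, with 0 counts in the epidermis and 34.1 to 171 CPM in the dermis against 183 to 256 CPM in subcutaneous ILCs, and it was not called between Sca1+ and subcutaneous ILCs (adjusted p = 0.493). Fibroblasts and endothelium also make C1 inhibitor, C3 and C4.

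Among the chemokines and cytokines that macrophages secrete, 13 of 15 were lower in the epidermis than in subcutaneous ILCs and 0 higher. Ccl9 had 0 counts in the epidermis, 5.41 to 26.9 CPM in the dermis and 214, 514 and 235 CPM in subcutaneous ILCs, and Ccl6 was at 0.921 ± 0.849 CPM in epidermal and 824 ± 426 CPM in subcutaneous ILCs (adjusted p = 5.5e-05). These were also the 2 called between Sca1+ and subcutaneous ILCs (Ccl9 -3.88 ± 0.490, adjusted p = 0.00602, and Ccl6 -5.61 ± 0.892, adjusted p = 0.00984). All 5 genes of the Fc gamma receptor list, which includes the signalling chain gene Fcer1g, were lower in the epidermis. Fcer1g and Fcgr1 were also counted in the wider list of macrophage genes above. Lysosomal genes, which all cells express, shifted less: 16 of 20 were lower in the epidermis, but their median log2 fold change was -1.56, with Ctsb at 324 ± 41.9 against 1715 ± 446 CPM (adjusted p = 3.95e-05) and Laptm5 not called (adjusted p = 0.659). Of the coagulation genes beside F13a1, 8 of 11 were lower in the epidermis, and the transglutaminase gene Tgm2, a relative of F13a1, was at 1 count over the epidermal group against 535 ± 306 CPM in subcutaneous ILCs (adjusted p = 7.24e-06).

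Genes of other myeloid cells were read in the same way. Of 10 monocyte genes, 8 were lower in the epidermis than in subcutaneous ILCs, and their summed level was 1.39 to 23.7 CPM in epidermal, 47.8 to 67.4 in dermal CCR6+, 331 to 461 in dermal Sca1+ and 1392 to 1750 CPM in subcutaneous libraries. In subcutaneous ILCs most of that sum was Ccr2, which ILCs also express (914 ± 170 CPM). Neutrophil genes summed to at most 12.6 CPM in any library. Camp, Ngp, Elane and Mpo, granule protein genes named here after their values were seen, had no count in any of them. Of 11 dendritic and Langerhans cell genes, 6 were lower in the epidermis, and the antigen presentation gene Cd74 was at 398 to 482 CPM in epidermal and 1600 to 2721 CPM in subcutaneous libraries.

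Transcripts of non-myeloid cells moved with some of the same comparisons. Between epidermal and subcutaneous ILCs, 9 of 10 fibroblast genes and all 10 endothelial genes were lower in the epidermis. The tenth fibroblast gene, Thy1, which lymphocytes also express, was higher there (adjusted p = 0.00906), as were all 10 keratinocyte genes. The summed endothelial level was 2.79 to 7.91 CPM in epidermal, 166 to 471 in dermal CCR6+, 629 to 651 in dermal Sca1+ and 392 to 711 CPM in subcutaneous libraries, and the summed fibroblast level was 171 to 257, 1472 to 2372, 2770 to 3927 and 3043 to 4534 CPM. In the epidermal libraries 6 to 9 of the 10 endothelial genes were at 0. Both dermal CCR6+ libraries lay below both Sca1+ libraries for 7 of 10 endothelial and 8 of 10 fibroblast genes. This order held for 5 of the 10 macrophage genes and 20.1% of all genes. Between the dermal sorts edgeR called 0 of either list (1 and 2 at an unadjusted p under 0.05, 0 and 1 by DESeq2). Also lower in the epidermis were 6 of 7 pericyte and smooth muscle genes, 7 of 9 mast cell genes, 4 of 6 adipocyte genes and 4 of 7 B cell genes. Of 10 genes of ILCs themselves, 4 were lower and 2 higher. The summed level of these ILC genes was 6227 to 6767 CPM in epidermal and 11055 to 11772 CPM in subcutaneous libraries. Of 10 T cell genes edgeR called 0, with 3 at an unadjusted p under 0.05 and 2 called by DESeq2. The part of these cells in the macrophage result was not tested. From dermal Sca1+ to subcutaneous ILCs, where the 10 macrophage genes had a median log2 fold change of -3.69, edgeR called 0 of 10 endothelial genes (median 0.00, 0 at an unadjusted p under 0.05, 0 by DESeq2) and 0 of 10 fibroblast genes (median -0.17, 2 at an unadjusted p under 0.05, 1 by DESeq2). It also called 0 of 7 pericyte and smooth muscle genes (median 0.37, 2 at an unadjusted p under 0.05, 0 by DESeq2). In the same comparison some non-myeloid genes were lower in Sca1+ ILCs, as the macrophage genes were. These were 2 of 6 adipocyte genes (Lpl and Pparg, list median -2.51, summed level 196 to 214 against 377 to 678 CPM). The other was 1 of 7 B cell genes (Cd79a, summed level 177 to 181 against 201 to 376 CPM). In each Sca1+ library 5 of the 8 listed B cell genes were at 0. The list median (-8.74, or -5.06 with genes at 0 counts at their bound) thus rests on such genes and cannot be set beside that of the macrophage genes. The part of these cells in the difference was not tested either. Keratinocyte genes ran the other way there, with 7 of 10 higher in Sca1+ ILCs (1.21% of all genes tested were called higher).

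**Figure D5:**
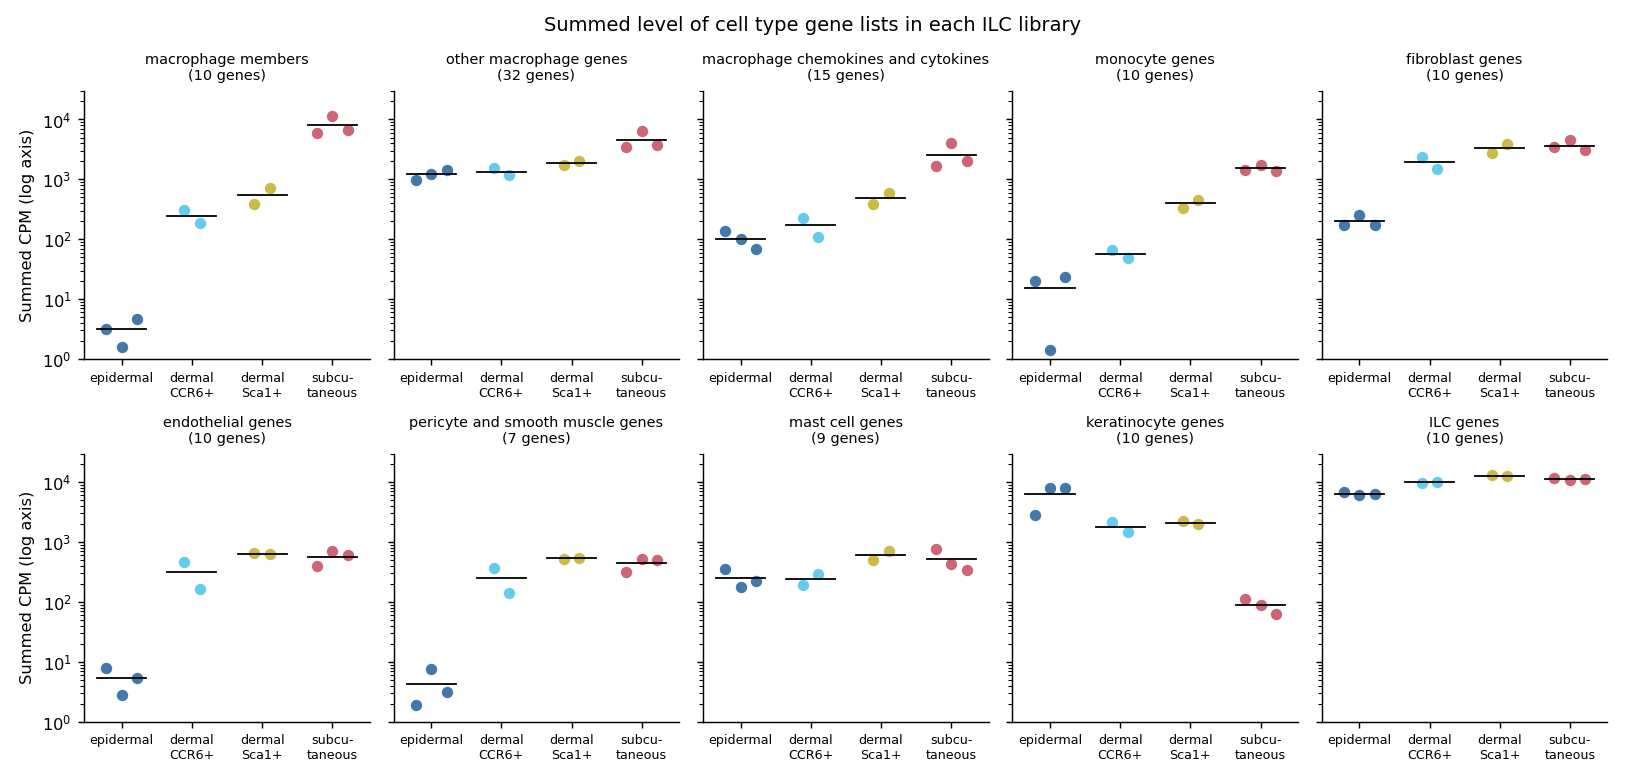
Summed level of 10 gene lists (panels, y axis, CPM, log axis) in each library (points) of the 4 groups (x axis), with group means as lines. The macrophage panel rises at every step from epidermal to subcutaneous ILCs. The endothelial and fibroblast panels rise from epidermal to dermal CCR6+ and on to dermal Sca1+ ILCs, while their dermal Sca1+ and subcutaneous points overlap.

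The genes whose profile over the 10 libraries was nearest to the mean profile of the 10 members were found among 8342 genes with a mean of at least 20 CPM in some group. Likeness was the root mean square distance of centred log2 CPM, on which C1qc, the member nearest to the members' own mean, had 0.574 and F13a1, the farthest, 2.16. The 8 nearest genes were Gimap4 (0.569), Fcrls (0.694), Ccl9 (0.705), Pf4 (0.748), Cfp (0.785), Pld4 (0.785), Cd163 (0.856) and C5ar1 (0.919). Gimap4, named for a family of lymphocyte GTPases, had mean levels of 0, 3.05, 14.0 and 140 CPM from epidermal to subcutaneous ILCs. Fcrls, an Fc receptor-like gene of macrophages and microglia, had 0.0165, 4.37, 27.6 and 183 CPM, and Cd163, the haemoglobin scavenger receptor gene, 0.0495, 2.80, 16.8 and 94.8 CPM. Pf4, Ccl9, Cfp, Cd163 and C5ar1 are also in the lists described above.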

How the data were processed

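Bulk RNA was measured in 10 libraries of skin ILCs with a low-input SMART-Seq kit and Nextera XT, per the labels' protocols. Trimmomatic, STAR, RSEM and mm10 stand in the submitters' processing notes, without versions. The authors deposited 1 table per library with RSEM expected counts, TPM and FPKM per gene, per the file headers. Expected counts are RSEM's estimates, of which 7.2% to 8.39% were not whole, and were rounded here. TPM, as deposited by the authors, is scaled for length and depth and was used for comparisons between genes. The deposited FPKM values were not used.

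The main test was edgeR 4.0.16 (quasi-likelihood, TMM, R 4.3.3) with all 10 libraries in one model of 4 groups, which share 1 estimate of the spread. Genes under the filterByExpr minimum of 10 counts were left out, which left 16208 of 47643. p-values were adjusted by Benjamini-Hochberg over all tested genes in each of the 6 comparisons and called under 0.05. Errors are SD over libraries, or SE for log2 fold changes. Alternatives used DESeq2 1.42.0 and limma 3.58.1, other filters, scalings and sample sets. The edgeR script was tested on simulated data. Symbols came from a table of gene names, which matched 47224 of the identifiers, and positions from GENCODE M21.

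The 10 genes and the 22 lists beside them were chosen with earlier results of these data known, and the numbers were recomputed from the deposited tables. Named in the text are all 10 members, up to 6 genes of a list with the highest mean CPM over the 10 libraries, and the 8 genes nearest in profile. Genes that a count of calls lists by name, and those said to be so, were named after their values were seen. The series' design speaks of triplicates, and 2 libraries of either dermal sort were analysed here. Of the genes that could be named, 1 is not reported here, although it enters the counts of its lists.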

Additional observations from a re-analysis of the deposited data

How the results depend on the processing

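All 10 genes stayed called between epidermal and subcutaneous ILCs in all 10 other settings and all 10 fits without 1 library. Between epidermal and dermal CCR6+ ILCs the 5 calls became 3 with limma on log2(TPM + 1), 10 with no filter beyond 1 count, 8 with at least 5 CPM in 2 libraries and 2 with only the 2 groups compared, and 3 to 7 without 1 library. Between the dermal sorts the 0 calls became 6 with no filter and 0 to 3 without 1 library. Between Sca1+ and subcutaneous ILCs the 4 calls became 10 and 7 with limma (pseudocounts 1 and 0.1), 10 with no filter, 9 with only the 2 groups and 1 to 7 without 1 library. The other 2 comparisons kept 7 to 10 calls of 10. DESeq2 ended the calls of Csf1r between epidermal and CCR6+ ILCs (adjusted p = 0.055) and of C1qb between CCR6+ and subcutaneous ILCs (0.0611). Limma and the fit with only the 2 groups ended calls of C1qc, Csf1r and Cd68 between epidermal and CCR6+ ILCs (0.0561 to 0.204), of Csf1r, Adgre1 and Fcna between epidermal and Sca1+ ILCs (0.0522 to 0.238) and of C1qb between CCR6+ and subcutaneous ILCs (0.0565).

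Over all genes, calls between epidermal and dermal CCR6+ ILCs were 1001, and 2001 with DESeq2, 2028 with no filter and 618 with only the 2 groups. Between the dermal sorts they were 104, and 561, 647 and 47 in the same settings, and 35 to 155 without 1 library. Between Sca1+ and subcutaneous ILCs they were 357, and 1193 with DESeq2, 891 and 743 with limma, 1328 with no filter, 560 with only the 2 groups and 157 to 420 without 1 library. Between epidermal and Sca1+ ILCs they were 1848, and 2967 with DESeq2, 2918 with no filter and 1192 to 1865 without 1 library. Between CCR6+ and subcutaneous ILCs they were 1209, and 2345 with DESeq2, 1978 and 1899 with limma, 2292 with no filter and 435 to 1372 without 1 library. The share of calls higher in the first group moved from 34.1% to 47.9% and 46.7% (limma, epidermal against subcutaneous), from 16% to 29.2% (DESeq2), 35.6% and 31.7% (limma, against CCR6+), and from 24.1% to 39.1% and 38.4% (limma, against Sca1+). For Sca1+ against subcutaneous ILCs it moved from 54.9% to 40.7% (DESeq2), 40% and 42.4% (limma), 39.4% (no filter) and 35.7% (only the 2 groups), and for CCR6+ against subcutaneous ILCs from 50.3% to 38.7% (only the 2 groups). Limma on log2(TPM + 0.1) moved the median of all genes between epidermal and subcutaneous ILCs from -0.02 to 0.11.

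Directions turned only for genes without a call. Between the dermal sorts Adgre1 turned to 0.33 with limma on log2(TPM + 0.1). Without 1 library, log2 fold changes ran between the sorts from -1.60 to 2.60 for Adgre1, from -1.07 to 0.091 for Cd68 (0.051 without Sca1+ replicate 2), from -3.80 to 0.90 for Retnla (0.18 without Sca1+ replicate 1) and from -6.70 to 0.27 for Fcna (0.092 without CCR6+ replicate 2). Between epidermal and CCR6+ ILCs they ran from -8.33 to 1.72 for C1qa and from -9.97 to 4.26 for C1qb, both highest without CCR6+ replicate 1, and from -8.45 to 5.15 for F13a1, highest without CCR6+ replicate 2. The cause was not tested. A lone library left in a group is assumed to vary like the others.

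The labels state no pairing of libraries by replicate number. Over 13 same-number pairs the correlation of deviations from group means was -0.0381 to 0.114, with 1 over 0.1. In a group of 2 libraries the deviations mirror each other, so some of these values repeat. They cannot tell whether libraries of the same number share animals or a day. A replicate block by title number gave 64 calls over all genes between the dermal sorts and 203 between Sca1+ and subcutaneous ILCs, where 2 macrophage genes were called, and turned Adgre1 to 0.32 between the sorts. That block also ended the calls of Csf1r between epidermal and CCR6+ ILCs (adjusted p = 0.0759), of Adgre1 and Fcna between epidermal and Sca1+ ILCs (0.0533 and 0.132) and of C1qb, Csf1r and Adgre1 between CCR6+ and subcutaneous ILCs (0.0883, 0.0681 and 0.0618). A replicate block by runs of the deposited numbers ended those of Csf1r (0.0706) and of Adgre1 and Fcna (0.082 and 0.113) in the first 2 of these comparisons, of Adgre1 between CCR6+ and subcutaneous ILCs (0.0763) and of Retnla between Sca1+ and subcutaneous ILCs (0.0502). Precision is limited by 2 libraries per dermal group and, in the epidermis, by 23 to 93 reads for all 10 genes together.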
